A study of Homo sapiens with 24 samples.

Results

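HIF1A, the gene of the oxygen-regulated subunit of hypoxia-inducible factor 1, and 9 of its target genes outside glycolysis were followed through a set of kinase inhibitor treatments. The 10 genes were taken by name from a list, and all 10 had a row among the 23368 genes of the count table. The cells were AGS, an established human gastric adenocarcinoma line labelled wild type, and RNA was taken 24 h after treatment. There were 6 groups of 4 cultures: a control, 3 single inhibitors and 2 combinations. PI103, which blocks PI3 kinase and mTOR, was used at 0.7 µM, PD0325901, which blocks MEK, at 0.035 µM, and (5Z)-7-oxozeaenol, which blocks TAK1 and is written oxozeaenol from here on, at 0.5 µM. The combinations joined PI103 to oxozeaenol or to PD0325901, with 50% of the single dose of each. All groups share 1 line, and the labels give no oxygen level and no vehicle for the control. The labels call the 4 cultures of a group biological replicates and number them as batches.

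Hypoxia-inducible factors are pairs of an alpha subunit, such as HIF1A, and the stable partner ARNT. In oxygen, the prolyl hydroxylases EGLN1 to EGLN3 mark the alpha subunit for destruction by the VHL ubiquitin ligase, so the factor is controlled mainly as a protein, while PI3 kinase, mTOR and ERK signalling are known to act on its synthesis and activity. The pair binds a short core element in the DNA of genes for blood vessel growth, pH control, mitochondrial turnover and glycolysis. EGLN1 and EGLN3 are themselves targets, which makes a feedback loop.

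Libraries held between 38057600 and 84226400 counts in genes, to 6 digits. All 11 epithelial markers passed the filter on low counts, and their sum lay between 5172 and 8096 counts-per-million (CPM), with EPCAM at 620 to 988 CPM. Of 6 leukocyte markers 3 passed, and their sum went from a mean of 45.9 CPM in control to 268 to 392 CPM in the treated groups, nearly all of it LYZ (lysozyme), while PTPRC reached 0.101 CPM and CD3E 0.0178 CPM at most. CD68 rose by 1.49 (adjusted p 8.52e-05) with PD0325901, from a mean of 0.826 to 2.33 CPM, and by 1.00 (adjusted p 0.00413) in the combination of PD0325901 and PI103. Of 6 fibroblast markers 4 passed, nearly all of the sum being COL1A1, with sums of 8.18 to 34.4 CPM over the libraries. The mean sum was 15.2 CPM in control, 33.2 with PI103, 20.3 with PD0325901 and 9.01 with oxozeaenol, and in the combinations 9.86 (oxozeaenol) and 23.2 (PD0325901). COL3A1 rose by 3.90 (adjusted p 1.39e-07) with PD0325901, from 0.0431 to 0.682 CPM, by 4.28 (adjusted p 1.54e-08) in its combination with PI103, at 0.887 CPM, and by 2.53 (adjusted p 0.000195) in the oxozeaenol combination. LUM rose by 2.47 (adjusted p 0.00109) with PD0325901, from 0.0436 to 0.252 CPM, and by 1.59 (adjusted p 0.0469) with oxozeaenol, and was lower with PI103 (adjusted p 0.0122), where it was listed at 0 in all 4 libraries. COL1A2 and DCN reached 0.0171 and 0.0176 CPM at most. The part of these markers in the results below was not tested. The endothelial sum did not exceed 0.452 CPM. In bulk RNA, fewer cells with a transcript and less transcript per cell cannot be told apart.

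Of the 10 genes, 8 had enough reads to be tested, and BNIP3 and CA9 had nearly none. Changes are log2 fold changes, so 1 is a doubling, and a gene was called at an adjusted p under 0.05 over all 13947 genes tested. VEGFA was the only member called lower in all 5 treatments, and EGLN3 the only one called higher in all 5. PI103 called 6 members, 3 higher (NDRG1, KDM3A, EGLN3) and 3 lower (VEGFA, ANKRD37, HIF1A), where 51.4% of all genes tested were called (26.2% higher, 25.2% lower). PD0325901 called 6, 5 higher (ADM, NDRG1, EGLN3, EGLN1, KDM3A) and 1 lower (VEGFA), against 58.6% of all genes (28.7% higher, 29.9% lower). Oxozeaenol called 3, with EGLN3 and EGLN1 higher and VEGFA lower, against 51.9% (25.7% higher, 26.1% lower); the count was 5 without control replicate 4. Both combinations called all 8 tested members, 5 higher and 3 lower in each, against 55.6% of all genes (27.7% higher, 27.9% lower) for PI103 with oxozeaenol and 64.8% (32.2% higher, 32.6% lower) for PI103 with PD0325901. With PI103 and oxozeaenol the count was 5 without control replicate 2 and 5 without replicate 1 of the combination. With over 50% of all genes called in each treatment, a count of calls does not set the members apart. For single agents the median change of the 8 was -0.04 (PI103), 0.40 (PD0325901) and 0.17 (oxozeaenol), and for the combinations 0.33 (oxozeaenol as partner) and 0.55 (PD0325901 as partner), while the median of all genes lay between -0.02 and 0.02. The treatments share the control cultures, so these counts are not independent of each other.

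**Figure D1:**
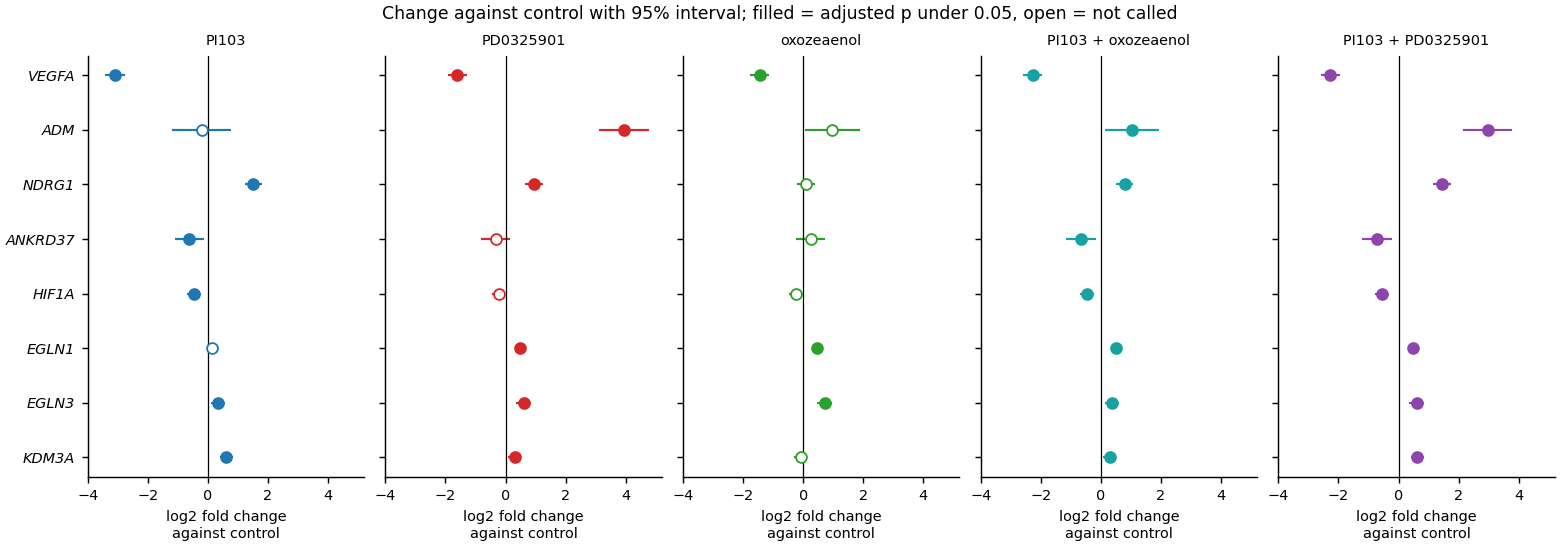
Log2 fold change against control (horizontal axis, no unit) of the 8 tested members in each of the 5 treatments, with the 95% interval of each value; filled points have an adjusted p under 0.05 and open points do not. VEGFA lies left of 0 in every panel, from -3.09 to -1.45, and ADM reaches 3.95 with PD0325901.

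Promoter windows of 5 members that hold a match to the core of the hypoxia response element are shown next, with the match in capitals, to let their number and distance from the start be compared. RefSeq start sites of build GRCh38.p14 gave windows of 300 bases, 250 before and 50 after the start, for 8 of the 10 members. VEGFA and NDRG1 had no entry. The motifs searched were ACGTG and GCGTG on both strands, so ACGTG reads as CACGT on the opposite strand and both overlap in the palindrome CACGTG. The windows, 5′ to 3′ on the gene's strand, are ADM at chr11:10304823-10305122 (plus strand), EGLN1 at chr1:231422238-231422537 (minus strand), ANKRD37 at chr4:185396591-185396890 (plus strand), the first of 2 start sites of KDM3A at chr2:86441121-86441420 (plus strand), and CA9 at chr9:35673678-35673977 (plus strand).
ADM: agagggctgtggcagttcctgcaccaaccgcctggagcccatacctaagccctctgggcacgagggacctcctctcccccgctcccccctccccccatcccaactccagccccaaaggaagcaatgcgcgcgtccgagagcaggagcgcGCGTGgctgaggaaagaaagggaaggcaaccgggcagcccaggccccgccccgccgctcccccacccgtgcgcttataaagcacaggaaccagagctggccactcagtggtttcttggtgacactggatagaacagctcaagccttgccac
EGLN1: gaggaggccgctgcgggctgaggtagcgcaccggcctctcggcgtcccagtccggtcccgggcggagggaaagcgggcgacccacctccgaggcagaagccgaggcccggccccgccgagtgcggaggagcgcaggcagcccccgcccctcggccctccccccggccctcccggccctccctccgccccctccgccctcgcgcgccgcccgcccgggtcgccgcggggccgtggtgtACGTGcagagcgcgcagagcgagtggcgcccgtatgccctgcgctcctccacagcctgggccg
ANKRD37: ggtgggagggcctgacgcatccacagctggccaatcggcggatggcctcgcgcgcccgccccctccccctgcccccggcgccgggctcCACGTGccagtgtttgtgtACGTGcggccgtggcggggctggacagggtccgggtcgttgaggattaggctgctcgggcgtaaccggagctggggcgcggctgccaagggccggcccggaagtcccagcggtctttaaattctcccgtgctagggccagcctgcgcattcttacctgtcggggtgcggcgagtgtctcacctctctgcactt
KDM3A: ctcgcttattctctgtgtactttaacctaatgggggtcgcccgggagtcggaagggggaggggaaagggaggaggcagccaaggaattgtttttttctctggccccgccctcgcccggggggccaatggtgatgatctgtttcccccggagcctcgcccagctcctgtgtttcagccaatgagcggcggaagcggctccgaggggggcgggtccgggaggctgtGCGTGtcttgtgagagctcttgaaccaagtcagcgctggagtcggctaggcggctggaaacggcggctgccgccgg
CA9: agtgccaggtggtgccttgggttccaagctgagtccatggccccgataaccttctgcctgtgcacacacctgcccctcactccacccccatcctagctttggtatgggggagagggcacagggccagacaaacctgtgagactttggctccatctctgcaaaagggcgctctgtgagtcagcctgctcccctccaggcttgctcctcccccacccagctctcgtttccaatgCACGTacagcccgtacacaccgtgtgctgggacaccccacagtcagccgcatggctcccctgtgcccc

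Of the 8 members with a window, 7 held at least 1 match and 4 (BNIP3, CA9, EGLN1, ANKRD37) held ACGTG. Among 35116 windows of all genes, 48.4% held either motif and 21.4% held ACGTG. These shares count windows, while the members, with 10 windows, were counted by gene. G and C made up 62.0% to 80.7% of the bases in the member windows, apart from the second of HIF1A (31.7%). The shares were not adjusted for this. EGLN1 had 1 match at -13 and CA9 1 at -18 from the start, KDM3A 1 at -26 from its first start site and ADM 1 at -101. ANKRD37 had 3 ACGTG matches, at -162, -161 and -143, the first 2 lying together in CACGTG; 1.98% of all windows have 3 or more such matches. BNIP3 had 6 matches, between -143 and -104, those at -134 and -133 lying together in CACGTG. Counted the same way, 0.923% of all windows have 6 or more. The window of EGLN3 held none. Genes with a match in this window moved both ways: with PI103 and PD0325901 combined, EGLN1 rose and ANKRD37 fell.

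**Figure D2:**
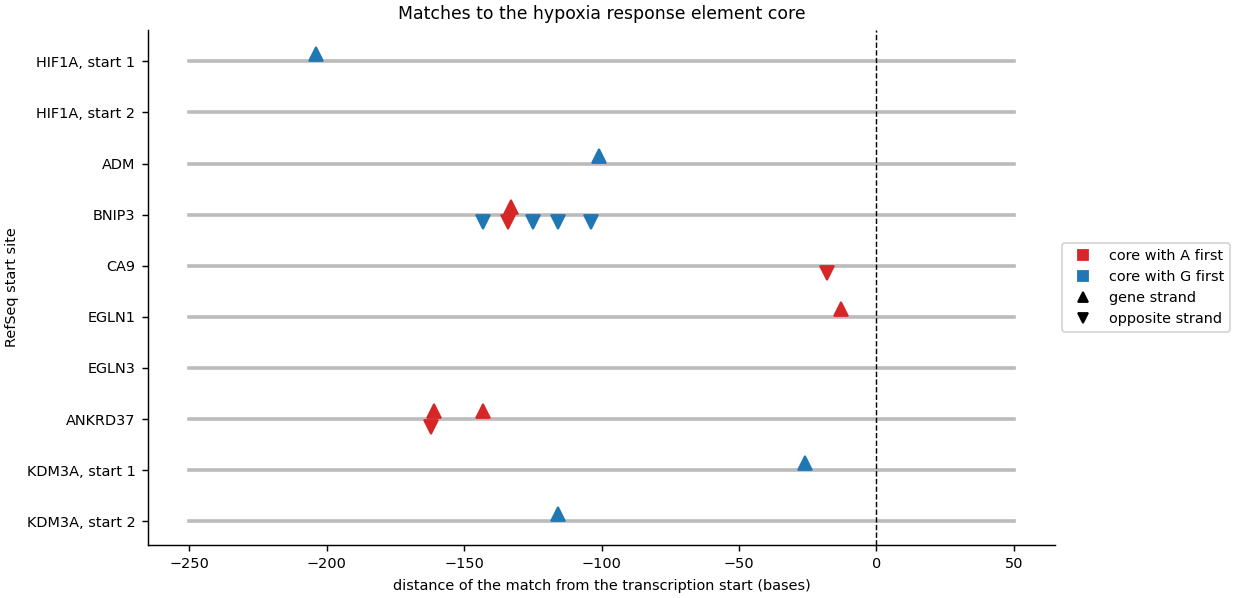
Position of each match to the core element (triangles, upward on the gene's strand and downward on the opposite strand; red for the core with A first, blue for G first) in bases from the transcription start (dashed line) for the 10 start sites of the 8 members with a window. BNIP3 has 6 matches within the stretch from -143 to -104, and EGLN3 and the second start site of HIF1A have none.

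HIF1A itself was the most abundant member and fell where PI103 was present. Control cultures 1 to 4 held 470, 498, 558 and 445 CPM, a mean of 492 ± 48.4 (SD, n = 4). The PI103 cultures held 380, 347, 377 and 315 CPM, all below the lowest control. In these cultures HIF1A fell by 0.47 on the log2 scale (SE 0.113, adjusted p 0.00102). When oxozeaenol was added to PI103, HIF1A was at 361 ± 35.3 CPM (SD, n = 4) and fell by 0.45 relative to control (adjusted p 0.00145). When PD0325901 was added, it was at 336 ± 9.99 CPM (SD, n = 4) and fell by 0.55 (adjusted p 0.000135). Neither of these groups overlapped control. With PD0325901 alone the cultures spread from 351 to 513 CPM and overlapped control (change -0.23, adjusted p 0.0768). Oxozeaenol alone gave 456, 453, 401 and 356 CPM (change -0.24, adjusted p 0.0731). With the replicate number as a block these 2 adjusted p were 0.0194 and 0.0197. Without PD0325901 replicate 2 the change of HIF1A with PD0325901 was -0.32 (adjusted p 0.0219), and its change with oxozeaenol was -0.29 (called, at an adjusted p that rounds to the threshold) without control replicate 4 and -0.28 (adjusted p 0.0467) with no filter on low counts. In the order of the 6 means, from PI103 with PD0325901 up to control, no neighbouring groups differed by the test. In GENCODE release 29, HIF1A shares 2.9% of its exon length with a gene on its own strand and 2.3% with HIF1A-AS1 on the other.

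EGLN1 and EGLN3, the prolyl hydroxylases PHD2 and PHD3 that mark HIF alpha subunits in oxygen, were both abundant and moved upward. EGLN1 held 185, 196, 234 and 182 CPM in control. It held 293, 309, 264 and 258 CPM with PD0325901 and 279, 273, 264 and 271 CPM with oxozeaenol, all above every control culture. EGLN1 rose by 0.50 (SE 0.0798, adjusted p 7.78e-06) with PD0325901 and by 0.45 (SE 0.0797, adjusted p 4.31e-05) with oxozeaenol. With PI103 alone it held 205 to 228 CPM, within the range of control, and changed by 0.13 (95% interval -0.03 to 0.30, adjusted p 0.170). Without control replicate 3, the highest control, that change was 0.21 (adjusted p 0.0318). Both combinations stood with the other inhibitors and not with PI103: EGLN1 rose by 0.49 (adjusted p 9.73e-06) with oxozeaenol added to PI103 and by 0.50 (adjusted p 5.41e-06) with PD0325901 added. The 4 groups from oxozeaenol to PI103 with PD0325901 had means of 272 to 281 CPM, and no neighbours among them were called different.

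EGLN3 held 115, 94.5, 115 and 88.9 CPM in control and rose in every treatment. It was highest with oxozeaenol, at 172, 160, 190 and 156 CPM, where it rose by 0.71 (SE 0.118, adjusted p 1.62e-05) with no overlap. With PD0325901 it held 157, 109, 187 and 173 CPM, replicate 2 lying within the control range, and rose by 0.60 (SE 0.118, adjusted p 9.91e-05). With PI103 and PD0325901 it rose by 0.60 (adjusted p 7.66e-05) and with PI103 and oxozeaenol by 0.37 (adjusted p 0.00974). The rise with PI103 alone was the smallest, at 0.33 (adjusted p 0.0212), from 103 ± 13.6 to 130 ± 5.10 CPM (SD, n = 4). That call was lost without control replicate 2 (0.29, adjusted p 0.0701) or control replicate 4 (0.26, adjusted p 0.0875). Only the step from control to PI103 separated neighbours in the order of the 6 means. PI103 differed from oxozeaenol by -0.32 (adjusted p 0.00243) for EGLN1 and by -0.39 (adjusted p 0.0101) for EGLN3, a comparison that called 7 members, 2 higher and 5 lower, and 43.1% of all genes (20.6% higher, 22.5% lower). The replicate block brought that count to 8 by adding HIF1A (-0.22, adjusted p 0.0388, in place of -0.23 and 0.101).

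VEGFA and ADM encode secreted peptides that act on blood vessels, and VEGFA was called lower in every treatment. ADM was called higher in both groups with PD0325901 and, near the threshold, in PI103 with oxozeaenol, but not with PI103 or oxozeaenol alone. For ADM, PI103 with oxozeaenol and oxozeaenol alone were not called different (0.06, 95% interval -0.79 to 0.91, adjusted p 0.946). VEGFA, the main vascular endothelial growth factor, held 222, 259, 203 and 260 CPM in control and 29.0, 27.3, 25.0 and 29.9 CPM with PI103. The groups are far apart: VEGFA was 8.49-fold lower, with a change of -3.09 (SE 0.165, adjusted p 5.82e-13). With PD0325901 the cultures held 105, 59.5, 71.4 and 73.0 CPM and VEGFA was lower (-1.61, SE 0.156, adjusted p 4.34e-09). With oxozeaenol they held 90.0, 102, 62.8 and 90.9 CPM and it fell by 1.45 (SE 0.155, adjusted p 3.98e-08). All 20 treated cultures were below the lowest control culture. PD0325901 and oxozeaenol were neighbours in the order and were not called different (0.17 higher with oxozeaenol, 95% interval -0.15 to 0.48, adjusted p 0.437). The combinations gave nearly equal means, 48.8 ± 7.80 CPM with oxozeaenol and 49.0 ± 6.15 CPM with PD0325901 (SD, n = 4), above PI103 and below the other agent.

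ADM, the vasodilator adrenomedullin, was scarce in control, at 0.259, 0.0745, 0.220 and 0.354 CPM, which rest on 16, 4, 18 and 27 reads. With PD0325901 it held 2.55, 4.52, 4.43 and 3.06 CPM, or 136 to 309 reads. ADM rose there by 3.95 (SE 0.404, adjusted p 7.94e-09), a 15.5-fold difference and the largest change of any member. With PI103 and PD0325901 it held 1.09, 3.34, 1.87 and 1.05 CPM and rose by 2.97 (SE 0.403, adjusted p 5.47e-07), with no overlap with control. PI103 alone left ADM at 0.145 to 0.246 CPM, within the control range (change -0.21, 95% interval -1.20 to 0.78, adjusted p 0.741). The difference between PI103 and PD0325901 was itself called (-4.16, SE 0.417, adjusted p 1.27e-08), in a comparison that called 5 members, 2 higher and 3 lower, and 44.5% of all genes (21.7% higher, 22.9% lower). With the replicate block it called 7, the added members being HIF1A (-0.23, adjusted p 0.0344, in place of 0.0878) and EGLN3 (-0.26, adjusted p 0.0364, in place of 0.0630). Oxozeaenol gave 0.261, 0.548, 0.795 and 0.300 CPM, and the change of 0.98 was not called (adjusted p 0.0670), but was without control replicate 4 (1.27, adjusted p 0.0364), without oxozeaenol replicate 1 (1.17, adjusted p 0.0361) and with DESeq2 (adjusted p 0.0291). For PI103 with oxozeaenol ADM was called higher (1.03, adjusted p 0.0448) at 0.320 to 0.632 CPM, which overlaps control. That call was lost without control replicate 1, 2 or 3 (adjusted p 0.0623, 0.132 and 0.0864), without replicate 1 or 4 of the combination (0.142 and 0.0943) and with no filter on low counts (0.0731).

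**Figure D3:**
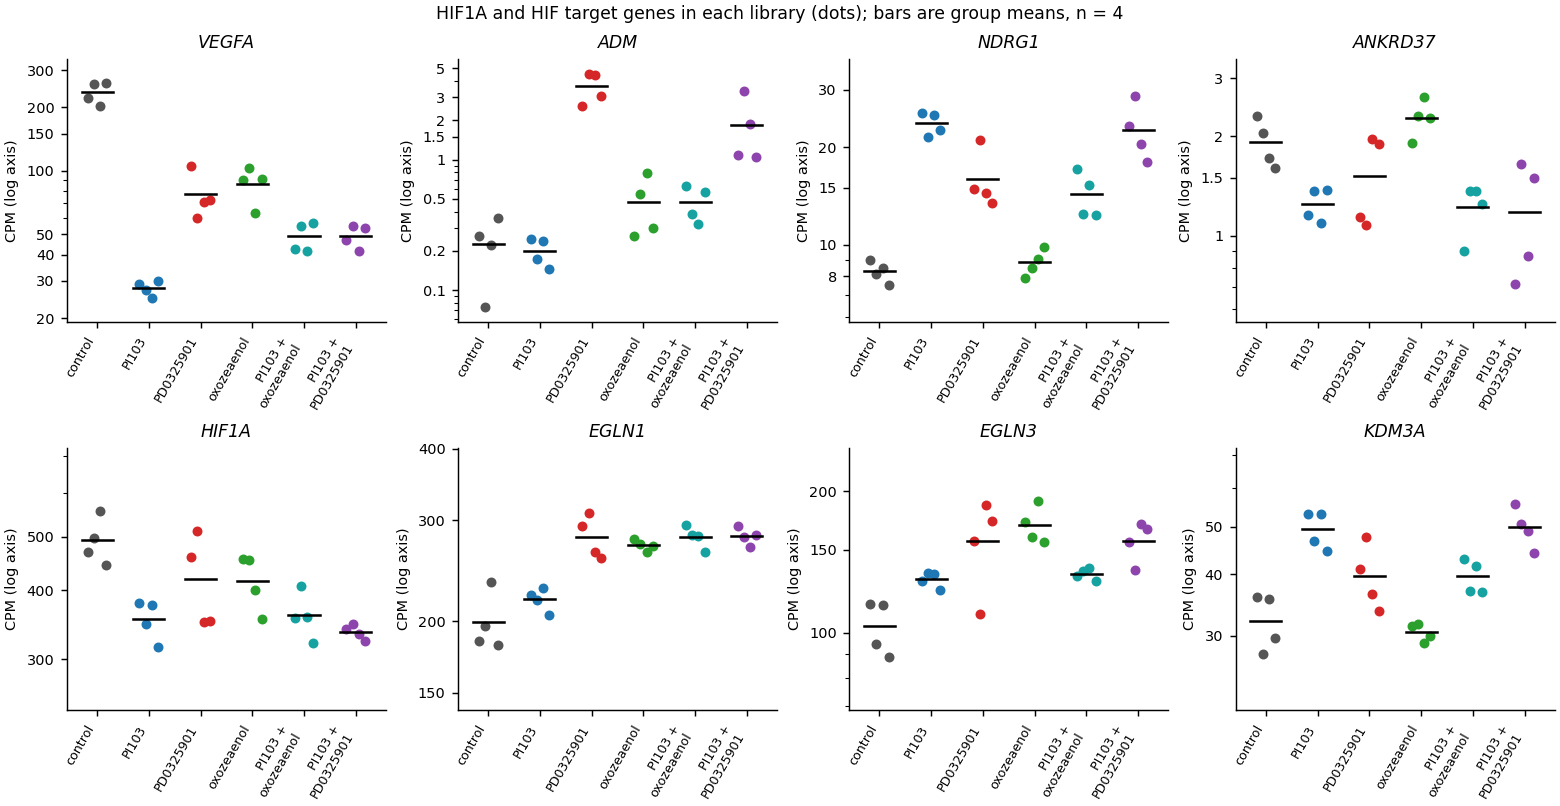
CPM on a log axis for each of the 24 libraries (dots, replicates 1 to 4 from left to right) with group means (bars) for the 8 tested members; the scale differs between panels. VEGFA is highest in the 4 control libraries (203 to 260 CPM). ADM has its highest mean with PD0325901, whose libraries lie at 2.55 to 4.52 CPM. Replicate 2 of PI103 with PD0325901 (3.34 CPM) lies within that range. NDRG1 and KDM3A have their highest means with PI103 alone and PI103 with PD0325901.

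NDRG1, a stress-responsive protein linked to growth arrest and differentiation, and KDM3A, a demethylase of histone H3 lysine residues, shared their order of groups to a large extent. NDRG1 held 9.00, 8.16, 8.50 and 7.53 CPM in control and 25.5, 21.5, 25.1 and 22.5 CPM with PI103. The rise was 1.51 (SE 0.141, adjusted p 2.26e-09) for PI103 and 1.44 (SE 0.141, adjusted p 1.89e-09) for its combination with PD0325901. PD0325901 alone gave 14.9, 21.0, 14.5 and 13.5 CPM and a rise of 0.94 (SE 0.140, adjusted p 2.56e-06), with every culture above control. With oxozeaenol NDRG1 held 7.92 to 9.84 CPM, around the control level (change 0.09, 95% interval -0.20 to 0.38, adjusted p 0.627). Adding PI103 to oxozeaenol raised it by 0.79 over control (adjusted p 3.49e-05), to 14.3 ± 2.32 CPM (SD, n = 4). In the order of means, control and oxozeaenol were not called different, nor PI103 with oxozeaenol and PD0325901, nor PI103 with PD0325901 and PI103, while the steps between these pairs were.

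KDM3A held 36.0, 27.5, 35.6 and 29.8 CPM in control and 53.2, 46.9, 53.0 and 44.6 CPM with PI103. It rose by 0.62 (SE 0.104, adjusted p 2.01e-05) with PI103 and by 0.63 (SE 0.104, adjusted p 7.72e-06) with PI103 and PD0325901, and neither group overlapped control. The rises with PD0325901 (0.30, adjusted p 0.0144) and with PI103 and oxozeaenol (0.30, adjusted p 0.0160) were smaller. The first was lost without control replicate 2 (0.23, adjusted p 0.0726) or PD0325901 replicate 2 (0.23, adjusted p 0.0640). The second was lost without control replicate 2 (0.23, adjusted p 0.0765), control replicate 4 (0.26, adjusted p 0.0542) or replicate 1 of the combination (0.26, adjusted p 0.0630), and with no filter on low counts (0.25, adjusted p 0.0512). Oxozeaenol left KDM3A at 29.0 to 31.7 CPM, inside the control range (change -0.08, 95% interval -0.29 to 0.14). Its 6 means fell into the same pairs of neighbours as those of NDRG1, with the order reversed within the lowest pair and within the highest pair. PI103 exceeded oxozeaenol by 1.42 (adjusted p 1.43e-08) for NDRG1 and by 0.69 (adjusted p 7.33e-06) for KDM3A.

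ANKRD37, a small ankyrin repeat protein, is a target whose level stayed under 3 CPM. It held 2.30, 2.05, 1.72 and 1.60 CPM in control and 1.15, 1.37, 1.10 and 1.37 CPM with PI103, below every control culture. ANKRD37 was lower than control in these cultures (-0.62, SE 0.240, adjusted p 0.0339), in those that also had oxozeaenol (-0.65, adjusted p 0.0237) and in those that also had PD0325901 (-0.71, adjusted p 0.0117), the last overlapping control. These calls were fragile. For PI103 it went without control replicate 1 or 2 (adjusted p 0.102 and 0.0689) or PI103 replicate 1 or 3 (0.0775 and 0.0850). With PI103 and oxozeaenol it was lost without control replicate 1 or 2 (0.0769 and 0.0512) or replicate 1 of the combination (0.0937), and with PI103 and PD0325901 without replicate 1 of the combination (0.0608). Oxozeaenol alone gave its highest level, 2.28 ± 0.296 CPM (SD, n = 4), which was not called against control (0.25, adjusted p 0.387) but was above PI103, the contrast of PI103 against oxozeaenol being -0.86 (adjusted p 0.00522). With PD0325901 the cultures held 1.14, 1.08, 1.96 and 1.89 CPM (change -0.32, adjusted p 0.248). In GENCODE, 35.2% of the exon length of ANKRD37 lies opposite exons of UFSP2, and the counting is not stated to use strand. UFSP2 lay at 16.1 to 30.6 CPM over the libraries, well above ANKRD37, and was called lower in every treatment. Its change was -0.46 with PI103, -0.27 with PD0325901 and -0.60 with oxozeaenol. In the combinations with PI103 it was -0.73 (oxozeaenol) and -0.46 (PD0325901). The change of ANKRD37 had the same sign in each treatment except oxozeaenol alone, and was not called with PD0325901 alone. The part of UFSP2 in the ANKRD37 counts was not tested.

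BNIP3 and CA9, often used as markers of hypoxia, were nearly without reads. BNIP3, a mitochondrial protein of the BCL2 family that promotes mitophagy, had 29 reads in all 24 libraries together and at most 4 in any of them. GENCODE names 39 pseudogenes after BNIP3, none of which has a row in the table, and reads without a unique alignment were tallied apart from genes, at 4.64% to 6.06% of reads per library. Its counts are therefore uncertain, and the part of such copies was not tested. CA9, the cell surface carbonic anhydrase IX, had 7 reads in all and 0 in 19 of 24 libraries. The limit of 3 reads that a count of 0 allows is at most 0.0851 CPM in any library. In GENCODE, 38.5% of the exon length of CA9 lies opposite exons of ARHGEF39. No change is given for either gene.

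In GRCh38 coordinates of GENCODE, HIF1A lies on chromosome 14 from 61695513 to 61748259, VEGFA lies on chromosome 6 from 43770184 to 43786487, ADM lies on chromosome 11 from 10304680 to 10307397, NDRG1 lies on chromosome 8 from 133237171 to 133302022. EGLN1 lies on chromosome 1 from 231363751 to 231425044, EGLN3 lies on chromosome 14 from 33924231 to 34462774, ANKRD37 lies on chromosome 4 from 185396021 to 185400628 and KDM3A lies on chromosome 2 from 86440647 to 86492716. Per length of exon, on the scale of CPM per kilobase of the union of GENCODE exons, control levels ran from HIF1A at 95.6 ± 9.39, EGLN1 at 27.4 ± 3.32, VEGFA at 16.4 ± 1.95 and EGLN3 at 14.0 ± 1.85 to KDM3A at 2.40 ± 0.316, NDRG1 at 0.845 ± 0.0629, ANKRD37 at 0.743 ± 0.123 and ADM at 0.0835 ± 0.0428 (SD, n = 4). In the PI103 cultures, VEGFA at 1.93 lay below KDM3A at 3.68 and NDRG1 at 2.41 on this scale. This order depends on the lengths used. The union for VEGFA held 14431 bases in 4 blocks, most of the gene from start to end. Its level per length is too low if its usual transcript is shorter. In plain CPM, VEGFA (27.8) lay below KDM3A (49.4) and above NDRG1 (23.7) with PI103. The annotation the authors counted on is not given in the sources used here, so lengths are approximate.

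Each combination was then set against the agents in it. Adding oxozeaenol to PI103, with less PI103, gave 4 members that differed from PI103, against 18.3% of all genes (9.39% higher, 8.92% lower). VEGFA was higher in the combination by 0.81 (adjusted p 0.000507) and EGLN1 by 0.36 (adjusted p 0.00188), NDRG1 was lower (-0.72, adjusted p 0.000436) and so was KDM3A (-0.32, adjusted p 0.0334). The KDM3A call was lost in 5 of the 8 fits that each left out 1 library (without PI103 replicate 1 or 3 or replicate 2, 3 or 4 of the combination, adjusted p 0.0506 to 0.108). ADM (1.24) was not called, at an adjusted p of 0.0547, but had 0.0405 with the replicate block, 0.0182 with DESeq2, 0.00980 with only the groups compared and 0.0484 without replicate 3 of the combination. The combination differed from oxozeaenol in 5 members, against 14.9% of all genes (7.59% higher, 7.28% lower). NDRG1 (0.70, adjusted p 0.00149) and KDM3A (0.38, adjusted p 0.0152) were higher, and VEGFA (-0.83, adjusted p 0.000777), ANKRD37 (-0.90, adjusted p 0.0125) and EGLN3 (-0.35, adjusted p 0.0466) were lower. Leaving out replicate 1 of the combination brought the number to 2, and it was 3 without its replicate 3 and 3 without oxozeaenol replicate 3. EGLN3 kept its call in 1 of 8 such fits (without oxozeaenol replicate 4; adjusted p 0.0622 to 0.163 in the rest), ANKRD37 lost it without replicate 1 of the combination (-0.77, adjusted p 0.0651), and KDM3A without replicate 1 or 3 of the combination (0.0757 and 0.0521) or oxozeaenol replicate 3 (0.0507). VEGFA and NDRG1 kept their calls in every such fit and both lay between the agents.

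PI103 with PD0325901 was higher than PI103 in 3 members, against 38.7% of all genes (18.8% higher, 19.9% lower): ADM by 3.17 (adjusted p 1.76e-06), VEGFA by 0.82 (adjusted p 0.000203) and EGLN1 by 0.37 (adjusted p 0.000723). EGLN3 (0.27) had an adjusted p of 0.0670, or 0.0321 with the replicate block, 0.0172 with only the groups compared and 0.0408 without replicate 2 of the combination. It differed from PD0325901 in 4 members, against 18.1% of all genes (8.06% higher, 10% lower). VEGFA (-0.66, adjusted p 0.00469) and ADM (-0.99, adjusted p 0.0418) were lower, and NDRG1 (0.50, adjusted p 0.0133) and KDM3A (0.33, adjusted p 0.0278) were higher. HIF1A (-0.32) had 0.0512, or 0.0145 with the replicate block and 0.0363 with DESeq2, and 0.0301 and 0.0251 without PD0325901 replicate 3 or 4. Of these 4, only VEGFA remained when the fit held just these groups, and the count was 2 without PD0325901 replicate 3 and 2 without replicate 1 of the combination. NDRG1 lost its call without PD0325901 replicate 3 or 4 (adjusted p 0.0549 and 0.0516) or replicate 2 of the combination (0.0584). KDM3A lost it without PD0325901 replicate 1, 3 or 4 or replicate 1 of the combination (0.0574 to 0.109), and ADM without PD0325901 replicate 2 or 3 or replicate 1, 3 or 4 of the combination (0.0761 to 0.140) and with no filter on low counts (0.0539). The combinations differed from each other in 3 members, against 29.9% of all genes (14.3% higher, 15.6% lower), with ADM (1.93), NDRG1 (0.65) and KDM3A (0.33) higher where the partner was PD0325901. KDM3A lost this call without replicate 2 or 4 of the oxozeaenol combination or replicate 1 of the other (adjusted p 0.0536 to 0.0675). Across the pairs, PI103 with oxozeaenol differed from PD0325901 alone in 2 members, VEGFA (-0.66) and ADM (-2.92), against 36.8% of all genes (17.6% higher, 19.2% lower). PI103 with PD0325901 differed from oxozeaenol alone in 6, with ADM (1.99), NDRG1 (1.36) and KDM3A (0.71) higher and ANKRD37 (-0.96), VEGFA (-0.82) and HIF1A (-0.31) lower, against 43.9% of all genes (20.9% higher, 23% lower). HIF1A lost that call without oxozeaenol replicate 1 or 2 or replicate 3 or 4 of the combination (adjusted p 0.0513 to 0.116) and with no filter on low counts (0.0503). Oxozeaenol differed from PD0325901 in 3, all lower with oxozeaenol (ADM -2.98, NDRG1 -0.86, KDM3A -0.38), against 28.5% of all genes (13.4% higher, 15.1% lower), and in 4 with the replicate block, which added ANKRD37 (0.58, adjusted p 0.0488, in place of 0.57 and 0.0702).

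If log2 effects were linear in concentration and added without interaction, 50% of each agent together would give the mean of the single log2 effects. For PI103 with oxozeaenol 0 of 8 members departed from it by edgeR's test, where 3.98% of all genes did (2.88% higher, 1.1% lower); 2 had an unadjusted p under 0.05, and DESeq2 and the fit of only the groups compared each called 1 (EGLN1, adjusted p 0.0482 and 0.0478). VEGFA departed by -0.01 (95% interval -0.28 to 0.26) and NDRG1 by -0.01 (-0.26 to 0.24). For PI103 with PD0325901 the count was 1, against 22% of all genes (10.8% higher, 11.1% lower). ADM was higher than the mean by 1.09 (SE 0.311, adjusted p 0.0140), the same sign in 4 of 4 batches. Without replicate 2 of the combination, which held 3.34 CPM, ADM was higher by 0.64 (adjusted p 0.175). This departure is on the log2 scale, and ADM had only 9 to 16 reads with PI103. In CPM the combination, at 1.84, lay near the midpoint of PI103 (0.201) and PD0325901 (3.64). A departure on the CPM scale was not tested. EGLN1 (0.18) had an adjusted p of 0.0530, or 0.0289 with the replicate block, 0.0334 with DESeq2 and 0.0301 without PD0325901 replicate 2, where NDRG1 had 0.30 (adjusted p 0.0368; 0.22 and 0.189 with all libraries). VEGFA departed by 0.08 (95% interval -0.19 to 0.35).

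**Figure D4:**
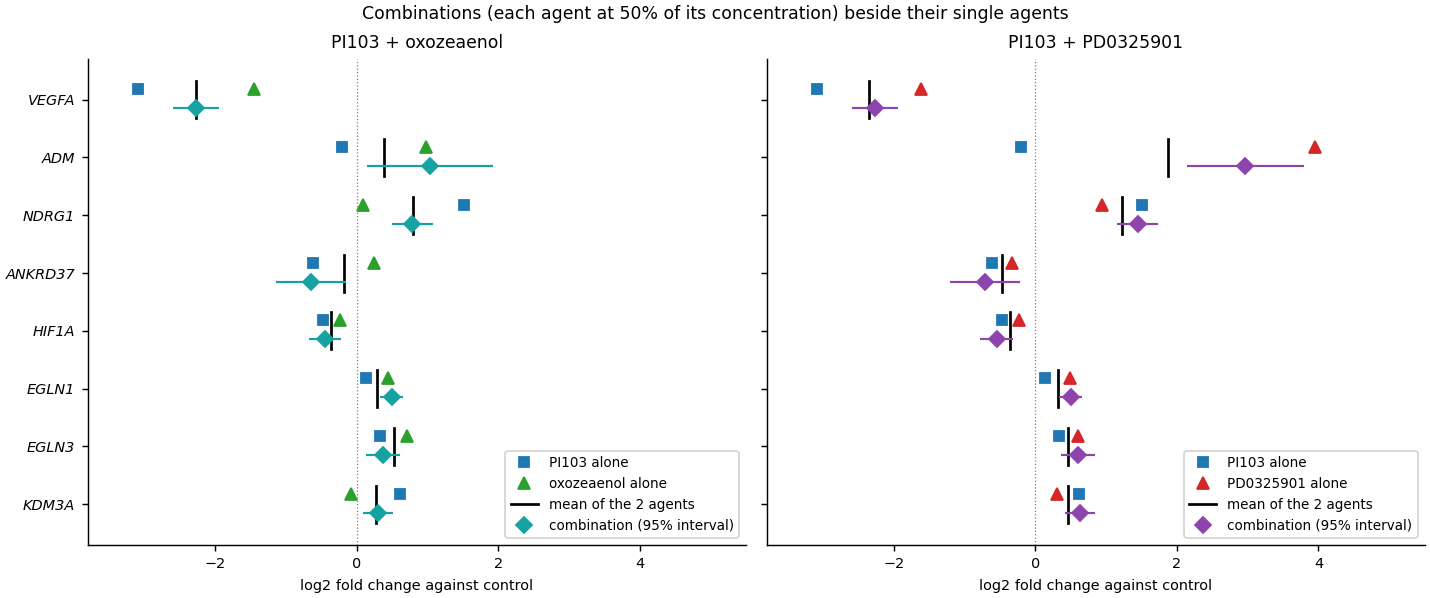
Log2 fold change against control (horizontal axis) of each tested member for PI103 alone (squares), the other agent alone (triangles), the mean of both (black bars) and the combination (diamonds with 95% interval), with oxozeaenol as partner on the left and PD0325901 on the right. The VEGFA diamonds lie at -2.27 in both panels, -0.01 from the mean at left and 0.08 from it at right, and the ADM diamond at right (2.97) lies above its mean.

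Members were also compared by pattern, as a description over 24 libraries that share batches and treatment groups. NDRG1 and KDM3A were the most alike pair of the 28, with a Pearson correlation of log2 CPM of 0.94 (0.69 after group means were removed). VEGFA was opposite to NDRG1 (-0.82) and KDM3A (-0.73), and alike to HIF1A (0.71). With group means removed these correlations were -0.38, -0.32 and -0.04. ANKRD37 was also opposite to KDM3A (-0.79, or -0.57 with group means removed). HIF1A and EGLN1 had -0.20 over all libraries and 0.77 within groups. Among 10034 other genes with a mean of at least 5 CPM, the gene most like each member was RBCK1 for VEGFA (0.98), CDK19 for NDRG1 (0.97), GLG1 for KDM3A (0.96), CCNYL1 for EGLN1 (0.94), CAT for ADM (0.94), OSBPL11 for HIF1A (0.93), SPATA5L1 for EGLN3 (0.89) and TIMM17A for ANKRD37 (0.86). RBCK1 went from 202 CPM in control to 73.2 with PI103 and 119 with PD0325901. CAT, catalase, went from 60.7 CPM in control to 70.0 with PI103 and 177 with PD0325901.

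Other genes of the pathway were taken from 3 further lists. Of 18 tested genes of oxygen sensing and the HIF complex, 7 were lower and 2 higher with PI103, 8 and 2 with PD0325901, 8 and 2 with oxozeaenol, 10 and 1 with PI103 and oxozeaenol, and 7 and 1 with PI103 and PD0325901; the medians lay between -0.24 and -0.16. Of all genes tested, 25.2% to 32.6% were lower and 25.7% to 32.2% higher in a treatment. CUL2, the scaffold of the VHL ligase, fell in all 5 (-0.67 with PI103, -0.39 with PD0325901), as did SIAH2, a ligase for the prolyl hydroxylases (-0.99 with PI103), and its relative SIAH1 (-0.74 with PI103 and PD0325901). OS9 rose in all 5, by 0.44 to 0.96. EPAS1, the alpha subunit of HIF-2, was lower under PI103 (-1.06, SE 0.124, adjusted p 9.06e-08) and rose by 0.69 (SE 0.122, adjusted p 2.71e-05) with PD0325901, from 40.3 ± 4.61 CPM in control to 19.3 ± 1.47 and 65.0 ± 12.9 (SD, n = 4). ELOC, named TCEB1 in the table, fell by 0.57 with PI103, and HSP90AB1 fell by 0.65 with PI103 and PD0325901.

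Of 32 tested targets outside glycolysis that are not members, 12 were lower and 8 higher with PI103, 12 and 10 with PD0325901, 14 and 8 with oxozeaenol, 13 and 8 with PI103 and oxozeaenol, and 13 and 12 with PI103 and PD0325901; the medians lay between -0.18 and 0.04. The same shares of all genes apply here, and the higher calls lie near theirs in each treatment. Those shares were 26.2% with PI103, 28.7% with PD0325901 and 25.7% with oxozeaenol, and 27.7% and 32.2% in the combinations (oxozeaenol, PD0325901). The lower calls lie above their shares in each treatment. These were 25.2% with PI103, 29.9% with PD0325901 and 26.1% with oxozeaenol, and 27.9% and 32.6% in the combinations. Whether the list departs from all genes was not tested. DDIT4, an inhibitor of mTOR complex 1 that other stress factors also induce, fell by 7.75 (SE 0.837, adjusted p 2.77e-07) with PI103, from 668 ± 98.7 to 3.11 ± 0.641 CPM (SD, n = 4), and fell by 2.05 with PD0325901. BHLHE40, a transcriptional repressor, fell by 0.83 with PI103 and by between 2.09 and 2.38 in the other treatments, ITGA5 fell by 1.43 with PI103, and ETS1 fell by 2.12 with PD0325901. HMOX1, heme oxygenase 1, fell by 0.64 with PI103 and rose by 1.91 with PD0325901. Of 20 tested glycolytic targets, 11 were lower and 3 higher with each single agent, 14 and 2 with PI103 and oxozeaenol, and 15 and 3 with PI103 and PD0325901, against 25.2% to 32.6% of all genes lower and 25.7% to 32.2% higher. The hexokinase HK2 fell by 2.09 with PI103 and 2.20 with PD0325901, the glucose transporter SLC2A1 by 0.59 and 1.86, and LDHA by 0.69 and 0.78. PDK1 fell by 1.68 with PI103, ALDOC fell by 1.10 with PI103 and rose by 1.60 with PD0325901, and PFKFB4 rose in all 5 treatments, least with PI103 and oxozeaenol (0.46), which was not called without control replicate 2 or 4 or replicate 3 of the combination (adjusted p 0.0708, 0.0527 and 0.0623). The median of the glycolytic list lay between -0.27 and -0.50 in the 5 treatments, and that of the members between -0.04 and 0.55.

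**Figure D5:**
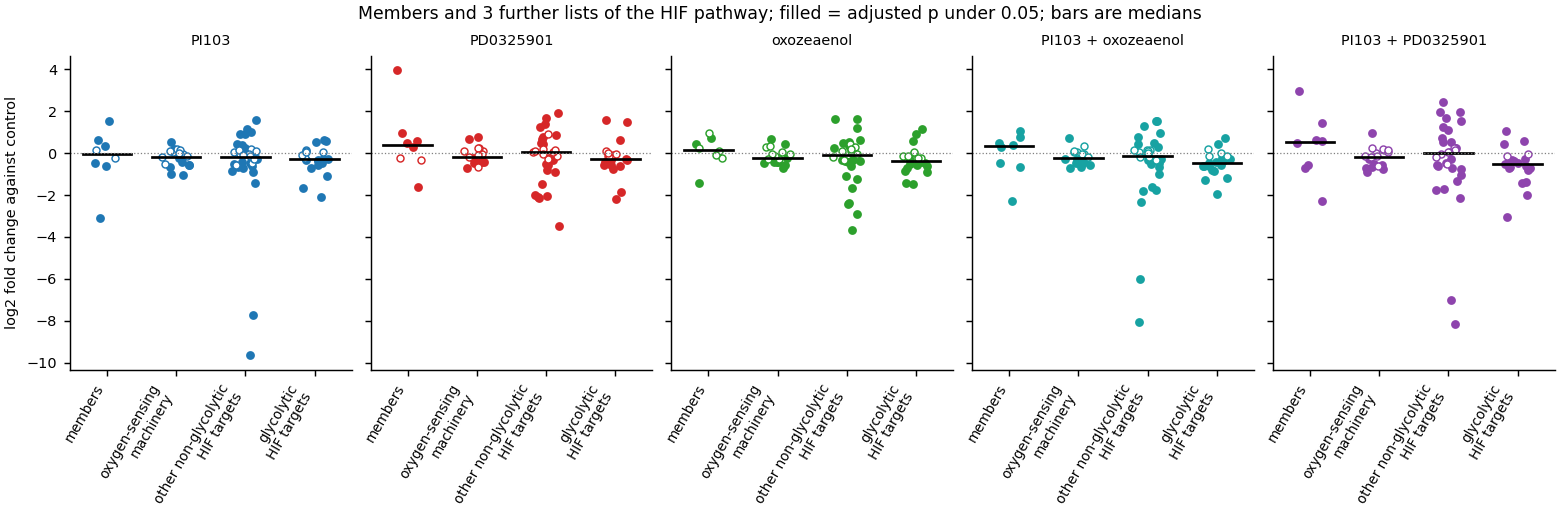
Log2 fold change against control (vertical axis) of each tested gene in the members and in 3 further lists of the HIF pathway, 1 panel per treatment; filled points have an adjusted p under 0.05, open points do not, and bars are medians. The medians of the glycolytic targets lie below 0 in all 5 panels, and DDIT4 (-7.75) is among the lowest points with PI103.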

How the data were processed

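Messenger RNA libraries were made with a stranded kit, per the labels' protocols. The authors deposited raw counts of reads for each gene symbol, on build GRCh38 per the submitters' processing notes; the aligner, the counting program and the annotation are not given in the sources used here. Its 5 tallies of unassigned reads (no feature 4.24% to 8.57%, ambiguous 1.57% to 2.01% and not unique 4.64% to 6.06% of reads per library) were left out. Genes were kept by filterByExpr, counts were scaled by TMM and 1 coefficient per group was fitted over 24 libraries with edgeR 4.0.16 in R 4.3.3 (quasi-likelihood F test, robust, two-sided, Benjamini-Hochberg over 13947 genes); the script was tested on simulated data. SE was derived from the fold change and F. CPM were taken on TMM-adjusted totals, and log2 CPM with a prior count of 2. No replicates were near-identical.

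Members and lists were chosen with earlier results of these data known. All members are named; from each other list, up to 4 genes called the same way in all 5 treatments with the largest median change and up to 3 with the largest range, at a mean of at least 5 CPM, and for each member the 1 most correlated gene. The labels give the replicate number as a batch. Deviations from group means correlated at 0.12 on average over 60 same-numbered pairs and at -0.04 over 180 others, so a fit with the replicate as a block was an alternative, beside DESeq2 1.42.0, its size factors, no filter, only the groups compared and leaving out each library. For single members called between treatments, and for the 2 comparisons across pairs, these alternatives were added after the data were seen. Exon overlaps and lengths are from GENCODE 29 (10 of 10 matched by symbol), promoters from RefSeq GRCh38.p14.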

Additional observations from a re-analysis of the deposited data

How the results depend on the processing

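Of 88 member values (8 members in 11 comparisons), 48 were called, and 33 of these kept the call in every alternative that was run, 15 losing it in at least 1. Of the 40 not called, 10 were called in at least 1. VEGFA kept every call. Counts of members called moved by over 1.5 times as follows. For PI103 with oxozeaenol against the mean of its agents, the count of 0 became 1 with DESeq2 and 1 with only the groups compared. For PI103 with PD0325901 against the mean, the count of 1 became 2 with the replicate block, 2 with DESeq2 and ranged from 0 to 3 when 1 library was left out. For PI103 with PD0325901 against PD0325901, 4 became 1 with only the groups compared and ranged from 2 to 3. Leaving out 1 library gave 5 to 8 in place of 8 for PI103 with oxozeaenol against control, 3 to 5 in place of 3 for oxozeaenol against control, and 2 to 5 in place of 5 for PI103 with oxozeaenol against oxozeaenol. In these 11 comparisons the replicate block changed no call beyond those named beside the results of HIF1A, EGLN1, EGLN3 and ADM, and in the 6 other comparisons between treatments it brought the counts of 5, 7 and 3 to 7, 8 and 4 as given there and left the other 3 counts. Of the 26 calls in those 6 comparisons, 22 held in every alternative, the others being ADM for PI103 against oxozeaenol, KDM3A for PI103 against PD0325901, and KDM3A and HIF1A as given. Among the list genes named, the block changed the call of HSP90AB1 with oxozeaenol (-0.28, adjusted p 0.0202). Signs turned only in values that were not called in any fit: leaving out 1 library, ADM with PI103 ranged from -0.460 to 0.0853.

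In PI103 with oxozeaenol against the mean, VEGFA ranged from -0.0849 to 0.0615, NDRG1 from -0.107 to 0.0514 and KDM3A from -0.0090 to 0.0625; against PI103, ANKRD37 ranged from -0.0964 to 0.0999 and HIF1A from -0.0398 to 0.0768; against oxozeaenol, ADM ranged from -0.139 to 0.351. In PI103 with PD0325901 against PI103, ANKRD37 ranged from -0.310 to 0.0870, KDM3A from -0.0453 to 0.0676 and NDRG1 from -0.205 to 0.0233; against PD0325901, EGLN1 ranged from -0.0375 to 0.0351 and EGLN3 from -0.153 to 0.0980, with EGLN1 at -0.00096 with DESeq2 size factors and -0.00090 with DESeq2, and EGLN3 at -0.00011 with no filter. Of the list genes, HSP90AB1 with PI103 ranged from -0.0413 to 0.0943 and was -0.0022 with no filter, and with oxozeaenol EPAS1 ranged from -0.103 to 0.0329 and TCEB1 from -0.0176 to 0.186. Few reads limit ADM and ANKRD37, and BNIP3 and CA9 most. The causes were not tested.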
